A study of Arabidopsis thaliana with 10 samples.

Results

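The genes described here are 10 regulators that decide where Arabidopsis thaliana makes a trichome, the single-celled hair of leaves and stems, and where it makes a root hair. They were chosen by locus from the 33602 genes of the count table: the activators GL1 (AT3G27920), MYB23 (AT5G40330), GL3 (AT5G41315), TTG1 (AT5G24520), GL2 (AT1G79840) and TTG2 (AT2G37260), and the inhibitors TRY (AT5G53200), CPC (AT2G46410), ETC1 (AT1G01380) and TCL1 (AT2G30432). All 10 had enough reads to be tested, as did 20681 genes in all. Their RNA was read by sequencing of whole seedlings of the Col-0 background with 4 open true leaves, in 10 libraries of 5 groups of 2. The groups were wild-type Col-0, Col-0 on 10 µM dexamethasone (Dex), the transgenic line DIF-OX2, the same line on 10 µM Dex (also called induced DIF-OX2), and the mutant dal-2. Dex is a synthetic glucocorticoid that serves as the inducer of the transgene in DIF-OX2. Every plate carried 1% sucrose and 0.1% ethanol, with or without Dex. Age at harvest was 12 days for the 4 groups of Col-0 and DIF-OX2, but 20 days for replicate 1 and 21 days for replicate 2 of dal-2, so genotype and age cannot be told apart in dal-2. The study's title names DIF as part of an SCF ubiquitin ligase that degrades DIFFERENTIATION AND GREENING-LIKE (DAL), the gene mutated in dal-2. The promoter behind DIF, the number of independent transgenic lines and the locus of DIF are not given in the sources used here.

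Trichomes and root hairs are laid out by the same type of protein complex, in which an R2R3 MYB, a basic helix-loop-helix (bHLH) protein and the WD40-repeat protein TTG1 act together. In the leaf epidermis the complex turns on GL2 and TTG2 and so commits a cell to the trichome fate. In the root epidermis it turns on GL2, which there keeps a cell hairless. The complex also turns on small single-repeat MYB proteins such as CPC and TRY, which move to neighbouring cells and compete with the R2R3 MYB for the bHLH partner. These inhibitors therefore suppress trichomes in the shoot and allow root hairs in the root.

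The regions just upstream of 4 of the genes are shown first, because GL1, MYB23 and GL2 fell in both main comparisons below, whereas the inhibitor CPC fell in dal-2 and not in induced DIF-OX2. TTG2 and TCL1, not shown, also fell in both, and TRY was, like CPC, called lower only in dal-2. Each region shown is the 250 bases before the annotated gene start in TAIR10.1 (RefSeq), read along the gene's own strand. Capitals mark E-boxes (CANNTG, the core bound by bHLH proteins such as GL3) and W-box cores (TTGAC or its reverse complement, the core bound by WRKY proteins such as TTG2).
GL1, chr3:10363608-10363857, minus strand: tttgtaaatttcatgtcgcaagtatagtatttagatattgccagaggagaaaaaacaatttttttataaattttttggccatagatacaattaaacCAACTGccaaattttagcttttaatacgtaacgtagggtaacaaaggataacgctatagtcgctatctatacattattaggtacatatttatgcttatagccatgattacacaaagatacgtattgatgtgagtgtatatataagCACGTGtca
MYB23, chr5:16127475-16127724, plus strand: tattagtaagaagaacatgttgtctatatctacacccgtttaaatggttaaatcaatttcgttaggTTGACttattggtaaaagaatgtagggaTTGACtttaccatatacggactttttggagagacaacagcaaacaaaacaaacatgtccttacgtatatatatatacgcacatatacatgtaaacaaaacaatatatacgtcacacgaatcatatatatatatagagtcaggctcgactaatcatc
GL2, chr1:30036706-30036955, plus strand: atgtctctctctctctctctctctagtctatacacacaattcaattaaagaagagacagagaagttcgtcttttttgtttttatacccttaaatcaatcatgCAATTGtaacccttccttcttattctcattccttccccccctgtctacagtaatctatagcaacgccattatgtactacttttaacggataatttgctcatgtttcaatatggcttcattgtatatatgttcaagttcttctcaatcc
CPC, chr2:19050370-19050619, minus strand: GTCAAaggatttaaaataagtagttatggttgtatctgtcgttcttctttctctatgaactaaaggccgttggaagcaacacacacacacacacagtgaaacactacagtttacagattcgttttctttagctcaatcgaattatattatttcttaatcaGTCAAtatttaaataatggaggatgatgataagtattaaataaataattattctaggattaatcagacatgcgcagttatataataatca
The GL1 region held 2 E-boxes, at 154 and 9 bases before the gene start, and the GL2 region held 1, at 148 bases. MYB23 and CPC held no E-box and 2 W-box cores each. Over all 10 genes, 8 had an E-box and 3 a W-box core in this window, while 55.3% and 44.9% of 27443 upstream regions of protein-coding genes of the same length had them. The L1 box (TAAATGCA or TAAATGTA, the element of epidermal homeodomain proteins such as GL2), searched on both strands, was in none of the 10 windows and in 4.49% of all regions. E-boxes read the same pattern on both strands, W-box cores were searched on both, and no match overlapped another in the regions shown. These matches describe letters in a short window and say nothing of binding. The other genes lie in TAIR10.1 at chr5:16529090-16533287 (GL3), chr5:8370317-8372847 (TTG1), chr2:15644811-15647076 (TTG2), chr5:21582614-21584243 (TRY), chr1:147043-148014 (ETC1) and chr2:12968565-12970240 (TCL1).

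Depth was 8805568 to 16556322 counts per library. Levels are in CPM, read counts normalised to library size with the trimmed mean of M values (TMM), and n = 2 throughout. The labels do not say that replicates came from separate cultures, so p-values measure only the spread between these libraries. Changes are log2 fold changes with their SE from edgeR's quasi-likelihood test, called at a Benjamini-Hochberg adjusted p of 0.05 over all tested genes. All 5 groups share 1 estimate of spread per gene, although the dal-2 replicates lay furthest apart (403 genes differed over 4-fold between them, and 5 to 29 elsewhere). This spread was not modelled group by group, and the p-values for dal-2 may be too small. It also entered comparisons without dal-2, where p-values may be too large. For DIF-OX2 on Dex against Col-0 on Dex, 4549 genes were called with dal-2 in the fit and 7065 without it. The regulators called numbered 5 in both fits. The DAL transcript (AT2G33430) stood at 92.6 to 115 CPM in the 6 libraries of Col-0, Col-0 on Dex and uninduced DIF-OX2, at 59.3 to 72.6 CPM when DIF was induced, and at 29.5 and 35.7 CPM in the mutant.

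The first comparison set induced DIF-OX2 against Col-0 on Dex, to ask what induction of DIF changes. Of the 10 regulators 5 fell and none rose, in a comparison in which 22.0% of all tested genes changed and 10.4% fell. The MYB activators GL1 and MYB23 fell furthest among the activators, followed by the downstream factors GL2 and TTG2, and TCL1 fell among the inhibitors. The other inhibitors did not pass the test, and CPC lay higher. The median log2 fold change was −1.25 over the 6 activators and −1.01 over the 4 inhibitors, against 0.01 over all tested genes. The dal-2 mutant was compared with Col-0 without Dex to ask what differs in the mutant, in which the DAL transcript was reduced but present. There 7 of the 10 fell and none rose, where 33.9% of all genes changed, 15.9% higher and 18.0% lower. The same 5 genes were among them, joined by TRY and CPC. The medians were −2.45 for activators and −2.44 for inhibitors, against 0.03 over all tested genes. In whole seedlings, fewer cells of a type and less RNA per cell cannot be told apart.

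**Figure D1:**
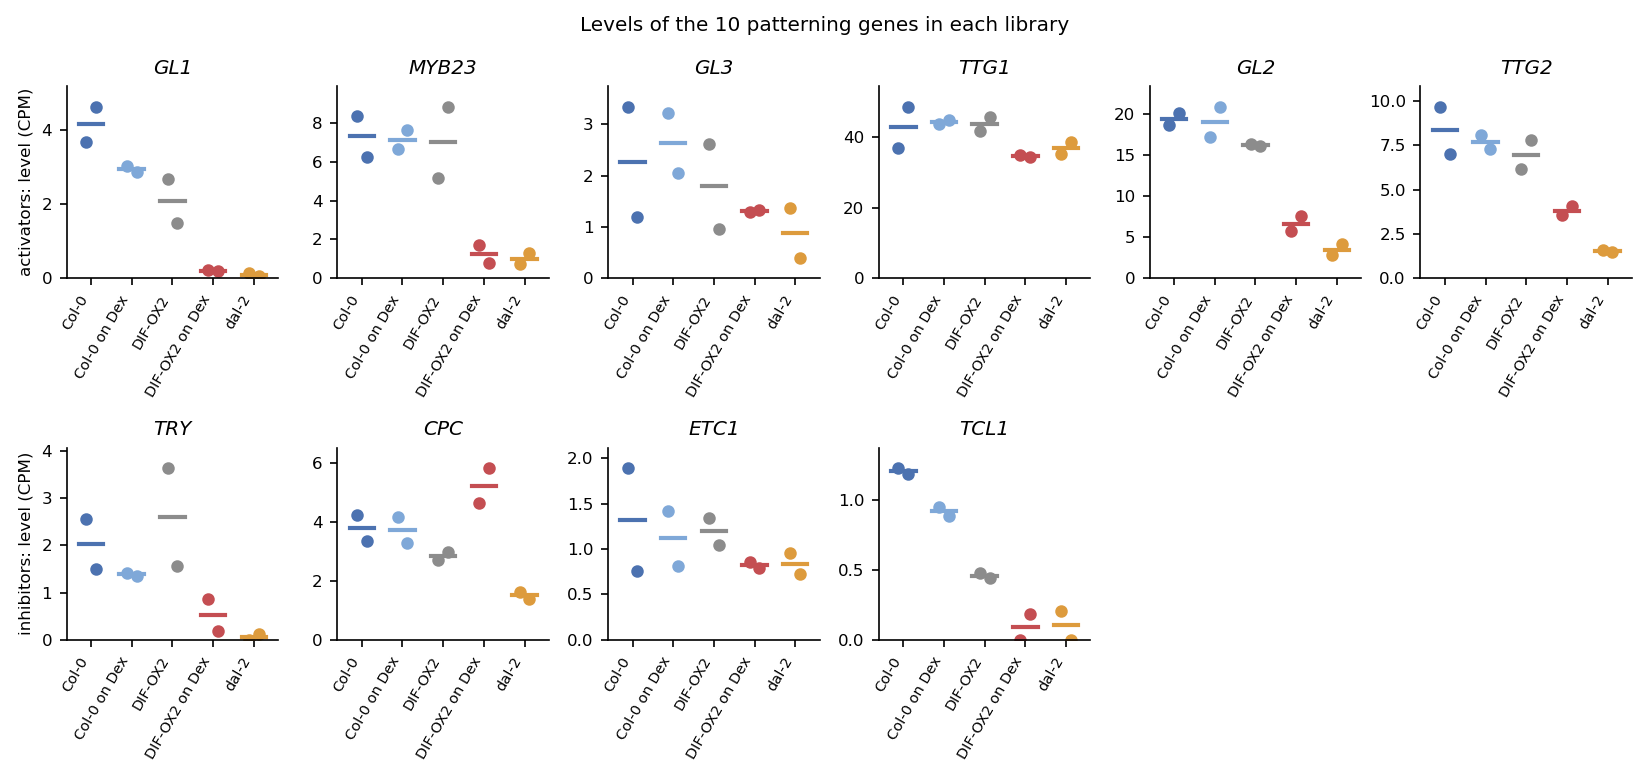
Level of each regulator (y axis, CPM, linear from 0) in every library, by group. Points are single libraries, replicate 1 left of replicate 2, and bars are means of 2; GL1, MYB23, GL2 and TTG2 sat lowest in induced DIF-OX2 and dal-2, while CPC sat highest in DIF-OX2 on Dex.

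GL1, the R2R3 MYB that starts trichome fate in leaves, stood at 3.68 and 4.64 CPM in Col-0 and at 3.04 and 2.86 CPM in Col-0 on Dex. Uninduced DIF-OX2 gave 2.69 and 1.49 CPM, DIF-OX2 on Dex 0.215 and 0.182 CPM, and dal-2 0.136 and 0.0555 CPM. The 4 libraries of induced DIF-OX2 and dal-2 held 1 to 3 reads each and lay far below the other 6, which held 17 to 43 reads. GL1 fell by 3.85 on the log2 scale in DIF-OX2 on Dex against Col-0 on Dex (SE 0.476, adjusted p = 0.00156). In dal-2, 3 reads against 76 in Col-0 gave a level 45.4-fold lower, with a 95% counting interval of 14.9 to 225, which covers counting error only (adjusted p = 3.08e-04). Both calls remained when any 1 of the 10 libraries was left out.

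MYB23, a close relative of GL1 that acts in trichomes and also in the root epidermis, read 8.35 and 6.26 CPM in Col-0, 6.64 and 7.63 CPM in Col-0 on Dex, and 5.15 and 8.83 CPM in uninduced DIF-OX2. It read 1.72 and 0.789 CPM in induced DIF-OX2 and 0.751 and 1.28 CPM in dal-2. No library of the last 2 groups reached any library of the first 3. MYB23 fell by 2.59 on the log2 scale in DIF-OX2 on Dex against Col-0 on Dex (SE 0.434, adjusted p = 0.00511) and by 2.81 in dal-2 against Col-0 (SE 0.428, adjusted p = 0.00219). The first call ended when replicate 2 of induced DIF-OX2 was omitted, at a log2 fold change of −2.05 and an adjusted p of 0.0587.

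GL3 and TTG1, the other parts of the complex, did not pass the test. GL3, a bHLH partner of the MYB proteins, read 3.34 and 1.19 CPM in Col-0, 3.22 and 2.04 CPM in Col-0 on Dex, and 2.61 and 0.962 CPM in uninduced DIF-OX2. It read 1.29 and 1.34 CPM in induced DIF-OX2 and 1.36 and 0.389 CPM in dal-2, so dal-2 overlapped Col-0. Replicate 1 lay well above replicate 2 in Col-0, uninduced DIF-OX2 and dal-2. Neither log2 fold change passed the test, −0.98 in DIF-OX2 on Dex against Col-0 on Dex (SE 0.680, adjusted p = 0.345) and −1.40 in dal-2 against Col-0 (SE 0.724, adjusted p = 0.166). Without replicate 1 of dal-2, the second became −2.51 with an adjusted p of 0.0477.

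TTG1, the WD40 protein shared by the trichome, root hair, seed coat and anthocyanin complexes, had the highest level. It read 37.0 and 48.7 CPM in Col-0, 43.9 and 44.8 CPM in Col-0 on Dex, 41.9 and 45.9 CPM in uninduced DIF-OX2, 35.1 and 34.5 CPM in induced DIF-OX2, and 35.2 and 38.7 CPM in dal-2. Induced DIF-OX2 lay below Col-0 on Dex in both libraries, and dal-2 overlapped Col-0. The log2 fold changes were −0.35 (SE 0.145, adjusted p = 0.120) and −0.21 (SE 0.144, adjusted p = 0.280), and neither passed the test. When the model held only the 4 libraries on Dex, the first reached an adjusted p of 0.0382 at a log2 fold change of −0.36.

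GL2, the homeodomain factor that acts downstream of the complex in both organs, read 18.7 and 20.2 CPM in Col-0, 17.2 and 20.9 CPM in Col-0 on Dex, and 16.3 and 16.1 CPM in uninduced DIF-OX2. It read 5.71 and 7.53 CPM in induced DIF-OX2 and 2.80 and 4.16 CPM in dal-2. Induced DIF-OX2 lay below the first 3 groups, and dal-2 lay lower still with no overlap. GL2 fell by 1.51 on the log2 scale in DIF-OX2 on Dex against Col-0 on Dex (SE 0.214, adjusted p = 0.00268) and by 2.47 in dal-2 against Col-0 (SE 0.224, adjusted p = 2.85e-04). Both calls remained when any 1 library was left out. The sources used here do not say whether strand was used in counting, so reads where exons of GL2, GL3 or ETC1 overlap those of other genes cannot be told apart.

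TTG2, a WRKY factor needed for trichome outgrowth and seed coat pigment, read 9.69 and 7.01 CPM in Col-0, 8.06 and 7.29 CPM in Col-0 on Dex, and 6.17 and 7.79 CPM in uninduced DIF-OX2. It read 3.55 and 4.07 CPM in induced DIF-OX2 and 1.57 and 1.50 CPM in dal-2. The groups followed the order seen for GL2, with dal-2 lowest and no overlap with induced DIF-OX2. TTG2 fell by 1.00 on the log2 scale in DIF-OX2 on Dex against Col-0 on Dex (SE 0.225, adjusted p = 0.0165) and fell by 2.44 in dal-2 against Col-0 (SE 0.244, adjusted p = 3.98e-04). The first call ended without any 1 of its 4 libraries. The adjusted p was then 0.0878 and 0.0683 when a replicate of Col-0 on Dex was omitted (1 and 2), and 0.0721 and 0.0809 when one of induced DIF-OX2 was (1 and 2).

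**Figure D2:**
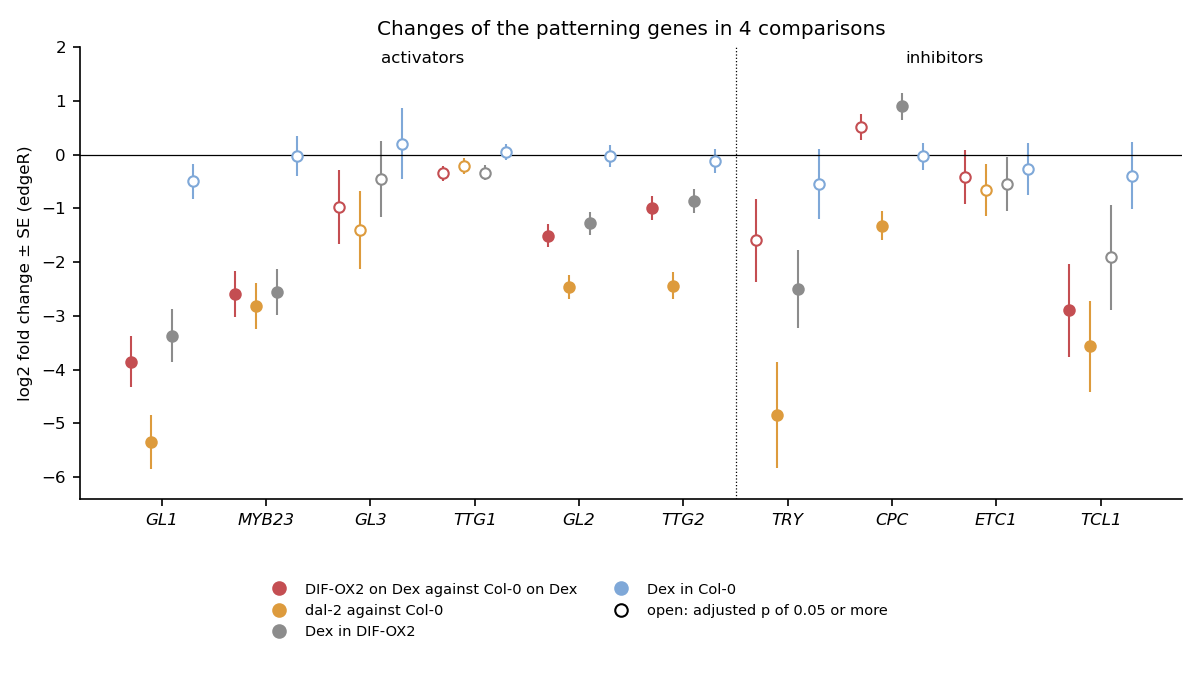
Log2 fold change of each regulator (y axis, edgeR estimate with its SE as the bar) in 4 comparisons, activators left and inhibitors right of the dotted line. Filled points passed an adjusted p of 0.05; among inhibitors CPC had a log2 fold change of 0.51 (not called) in induced DIF-OX2 against Col-0 on Dex, 0.89 against uninduced DIF-OX2, and −1.32 in dal-2 against Col-0.

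The inhibitors did not move as a block. CPC, the single-repeat MYB that travels between root epidermal cells and promotes root hairs, read 4.23 and 3.34 CPM in Col-0, 4.17 and 3.27 CPM in Col-0 on Dex, and 2.69 and 2.97 CPM in uninduced DIF-OX2. It read 4.63 and 5.83 CPM in DIF-OX2 on Dex, above every other library, and 1.64 and 1.39 CPM in dal-2, below every other library. The difference of induced DIF-OX2 from Col-0 on Dex did not pass the test (log2 fold change 0.51, SE 0.241, adjusted p = 0.168). In dal-2 CPC fell by 1.32 on the log2 scale (SE 0.267, adjusted p = 0.00734), a call that ended without replicate 1 of Col-0 (log2 fold change −1.09, adjusted p = 0.0612).

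TRY, the inhibitor that spaces trichomes on the leaf, read 2.56 and 1.51 CPM in Col-0, 1.42 and 1.36 CPM in Col-0 on Dex, and 3.64 and 1.57 CPM in uninduced DIF-OX2. It read 0.862 and 0.182 CPM in induced DIF-OX2 and 0 and 0.111 CPM in dal-2. Induced DIF-OX2 lay below Col-0 on Dex without overlap, but its replicates differed and the log2 fold change of −1.60 did not pass the test (SE 0.769, adjusted p = 0.175). In dal-2, 2 reads against 37 in Col-0 gave a level 33.1-fold lower (95% counting interval 8.54 to 284, adjusted p = 0.00752).

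TCL1, known for suppressing trichomes on the stem, was near the limit of detection. It read 1.23 and 1.19 CPM in Col-0, 0.949 and 0.885 CPM in Col-0 on Dex, 0.475 and 0.437 CPM in uninduced DIF-OX2, 0 and 0.182 CPM in induced DIF-OX2, and 0.205 and 0 CPM in dal-2. A library without a read allows up to 0.323 CPM in DIF-OX2 on Dex (replicate 1) and 0.167 CPM in dal-2 (replicate 2), the level of 3 counts. Reads numbered 3 in DIF-OX2 on Dex against 23 in Col-0 on Dex, a level 7.83-fold lower (95% counting interval 2.36 to 40.7, adjusted p = 0.0465). They numbered 3 in dal-2 against 22 in Col-0, a level 13.1-fold lower (95% counting interval 3.94 to 68.5, adjusted p = 0.0143). The first call ended without any 1 of the 8 libraries other than dal-2 (adjusted p 0.0798 to 0.163). The second ended without replicate 1 or 2 of Col-0 (adjusted p = 0.0668 and 0.0647).

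ETC1, which acts with TRY and CPC in both organs, read 1.89 and 0.755 CPM in Col-0, 1.42 and 0.817 CPM in Col-0 on Dex, and 1.35 and 1.05 CPM in uninduced DIF-OX2. It read 0.862 and 0.789 CPM in induced DIF-OX2 and 0.955 and 0.722 CPM in dal-2. Induced DIF-OX2 overlapped Col-0 on Dex, and dal-2 overlapped Col-0. The log2 fold changes were −0.41 (SE 0.501, adjusted p = 0.601) and −0.66 (SE 0.491, adjusted p = 0.325), and neither passed the test.

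Compared per length of exon, TTG1 was the most abundant of the 10 in every group, at 22.8 ± 4.42 CPM per kb (SD, n = 2) in Col-0. MYB23 at 7.48 ± 1.52, GL2 at 6.07 ± 0.321, CPC at 4.96 ± 0.825, GL1 at 4.41 ± 0.721 and TTG2 at 4.30 ± 0.977 CPM per kb came next in Col-0. The last 3 lay within 1 SD of each other. GL3 was lowest in Col-0 at 0.838 ± 0.564 CPM per kb, within 1 SD of ETC1 at 1.55 ± 0.943. In DIF-OX2 on Dex, CPC stood in the second place at 6.85 ± 1.11 CPM per kb, ahead of GL2 at 2.07 ± 0.402 and MYB23 at 1.29 ± 0.676, while GL1 stood ninth at 0.211 ± 0.0249. In dal-2, CPC was again second, at 1.98 ± 0.231 CPM per kb, and GL1 ninth at 0.102 ± 0.0607.

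The make-up of the 4 inhibitors was read per library. Per kb of exon, CPC made up 44.2% to 53.6% of the 4 summed inhibitors in the libraries of Col-0 and Col-0 on Dex, and 35.7% and 51.5% in uninduced DIF-OX2. It made up 75.6% and 84.4% in induced DIF-OX2 and 59.8% and 65.3% in dal-2. The summed inhibitor level was 7.56 to 12.5 CPM per kb in the 6 libraries of the first 3 groups and 8.03 and 9.05 in DIF-OX2 on Dex, inside that range. It was 3.59 and 2.79 CPM per kb in dal-2, below it. The trichome MYB pair GL1 and MYB23 summed to 8.12 to 12.4 CPM per kb in the first 3 groups, 1.99 and 1.00 in induced DIF-OX2, and 0.913 and 1.37 in dal-2. Their ratio to the inhibitors was 0.821 to 1.40 in the first 3 groups, 0.248 and 0.111 in induced DIF-OX2, and 0.254 and 0.490 in dal-2. The low ratio went with a low numerator in induced DIF-OX2 and, for these 4 inhibitors, with both terms low in dal-2. Other single-repeat MYB genes were left out of the sum, among them TCL2, which was called higher in dal-2 (below). The sums, shares and ratios therefore hold for these 4 genes and not for all inhibitors. These ratios are descriptions with no test.

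**Figure D3:**
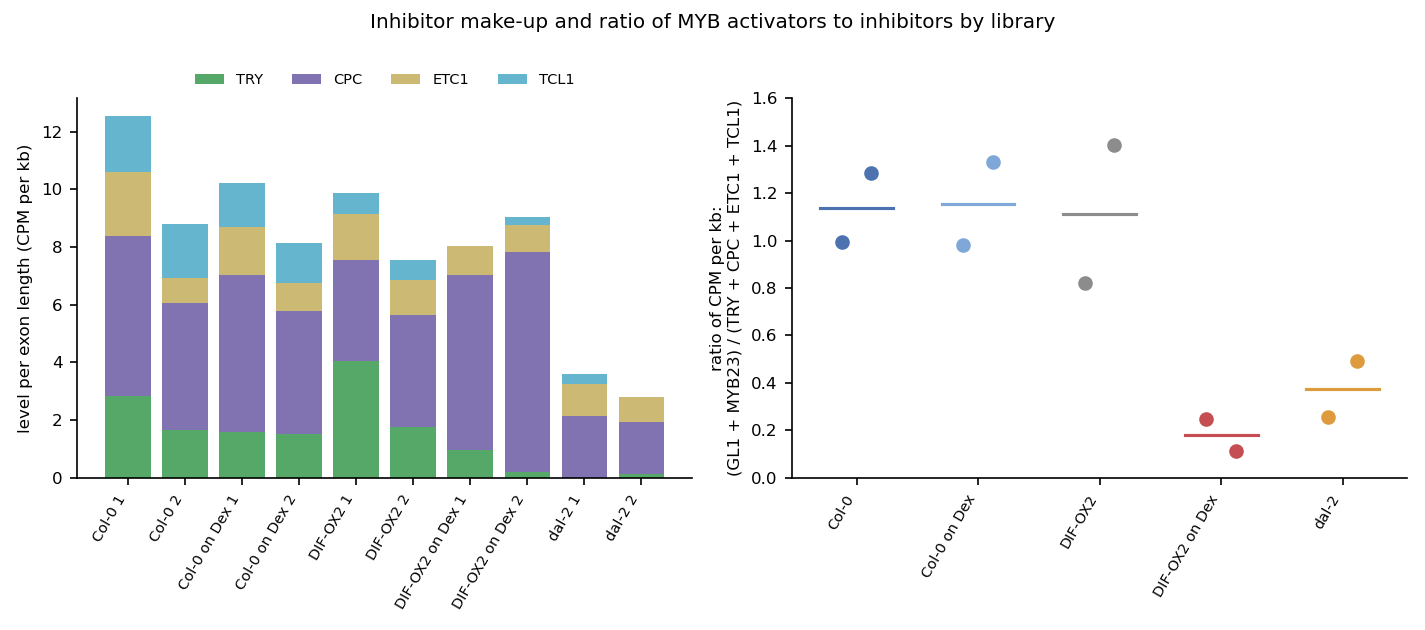
Left, summed level of the 4 inhibitors per kb of exon in each library (stacked bars, CPM per kb, from 0); right, ratio of GL1 plus MYB23 to the 4 inhibitors per kb, points being libraries and bars means of 2. The inhibitor sum was 8.03 and 9.05 in DIF-OX2 on Dex, mostly CPC, and the ratio was at most 0.490 in induced DIF-OX2 and dal-2 against at least 0.821 elsewhere.

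Dex alone was tested in Col-0 and changed none of the 10 regulators, nor any gene of the table (0% called by edgeR). At an unadjusted p under 0.05, 566 of 20681 genes passed, and DESeq2 also called 0. The log2 fold changes of the regulators lay between −0.54 and 0.20. Uninduced DIF-OX2 against Col-0 likewise called none of the 10, with 0.00967% of all genes called and 262 genes at an unadjusted p under 0.05. GL1 (log2 fold change −0.98, SE 0.336) and TCL1 (−1.38, SE 0.689) were the lowest there, and each adjusted p was 1.

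Within DIF-OX2, Dex lowered 5 regulators and raised 1, where 24.3% of all genes changed, 12.7% higher and 11.6% lower. This comparison shares the libraries of induced DIF-OX2 with the first one and is not independent of it. GL1 fell by 3.37 (SE 0.492, adjusted p = 0.00284), MYB23 by 2.56 (SE 0.435, adjusted p = 0.00522), GL2 by 1.27 (SE 0.214, adjusted p = 0.00496) and TTG2 by 0.86 (SE 0.226, adjusted p = 0.0275) on the log2 scale. TRY fell by 2.51 (SE 0.726, adjusted p = 0.0385). CPC rose by 0.89 (SE 0.247, adjusted p = 0.0328), and both of its induced libraries lay above both uninduced ones. The uninduced line lay lower than Col-0 for CPC (log2 fold change −0.42, SE 0.258, not called). Against Col-0 on Dex, the change of CPC in induced DIF-OX2 was 0.51, also not called. TCL1 numbered 3 reads against 11, a level 3.92-fold lower (95% counting interval 1.04 to 21.9, adjusted p = 0.189), and ETC1, GL3 and TTG1 did not pass the test either. The MYB23 call ended when replicate 2 of induced DIF-OX2 was omitted (adjusted p = 0.0590). The TTG2 call ended without any 1 of the 4 DIF-OX2 libraries (0.0576 to 0.158), the TRY call in 7 of 10 omissions (0.0534 to 0.268) and the CPC call in 6 of 10 (0.0504 to 0.228). DESeq2 gave CPC an adjusted p of 0.0643.

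Whether Dex acted differently in the 2 genotypes was tested with an interaction term, which 6.33% of all genes passed, 3.83% higher and 2.50% lower. GL1, MYB23 and GL2 passed it, with Dex effects in DIF-OX2 lower than in Col-0 by 2.87 (SE 0.606, adjusted p = 0.0336), 2.53 (SE 0.571, adjusted p = 0.0409) and 1.25 (SE 0.295, adjusted p = 0.0460) on the log2 scale. The difference for CPC was 0.93 (SE 0.353, adjusted p = 0.156) and that for TTG2 −0.74 (SE 0.313, adjusted p = 0.200), and neither passed. The GL1 and GL2 calls ended without any 1 of the 8 libraries of the term (adjusted p up to 0.178 and 0.160), and the MYB23 call without any but replicate 1 of DIF-OX2 on Dex (up to 0.175).

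The contrast of the inhibitors between induced DIF-OX2 and dal-2 was tested directly, as the change in DIF-OX2 on Dex against Col-0 on Dex minus the change in dal-2 against Col-0. This comparison was chosen after the values had been seen. It called 2 of the 10, both less reduced or higher in induced DIF-OX2, where 6.07% of all genes passed and 4.18% were higher. The difference was 1.83 for CPC (SE 0.359, adjusted p = 0.0256) and 1.44 for TTG2 (SE 0.331, adjusted p = 0.0424). GL2 (0.96, adjusted p = 0.107), TRY (3.25, adjusted p = 0.198) and GL1 (1.50, adjusted p = 0.354) did not pass, and that for MYB23 was 0.22 (adjusted p = 0.863). Both calls ended without any 1 of the 8 other libraries and remained without either dal-2 library, a fit that takes the spread of the lone dal-2 library from the other groups. The adjusted p rose to 0.123 for CPC and 0.164 for TTG2.

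Further genes of the same system were read from gene lists. Of 7 tested other members of the patterning complex, none was called by edgeR in DIF-OX2 on Dex against Col-0 on Dex, where 10.4% of all genes fell. The log2 fold changes ran from −1.62 to 0.23 (median −0.63), with a lowest adjusted p of 0.0643. Without replicate 1 of induced DIF-OX2 1 was called lower, and without either dal-2 library 2 were. In dal-2 1 rose and 2 fell (median −0.86), where 15.9% and 18.0% of all genes did. The bHLH genes EGL3, a close relative of GL3, and MYC1 fell in dal-2 by 0.86 (adjusted p = 0.0200) and 1.78 (adjusted p = 0.00255) on the log2 scale. TCL2, another single-repeat MYB that lies next to TCL1 on chromosome 2, rose in dal-2 by 1.50 (adjusted p = 0.0224). The sources used here do not say how reads shared with TCL1 were counted. TCL2 read 4.57 and 2.59 CPM in Col-0 and 13.4 and 6.99 CPM in dal-2. The call ended without replicate 2 of Col-0 or replicate 1 of dal-2, and the call of EGL3 without replicate 1 of Col-0. In DIF-OX2 on Dex the log2 fold changes were −0.63 for EGL3, −0.81 for MYC1 and −0.78 for TCL2, none called.

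Of 8 tested genes that act upstream of trichome initiation, 2 fell in DIF-OX2 on Dex against Col-0 on Dex (median −0.24), where 10.4% of all genes fell. SPL9, the age-dependent factor that is known to switch on TCL1 and TRY, fell by 1.98 on the log2 scale (adjusted p = 0.00461). It read 7.49 and 5.79 CPM in Col-0 on Dex and 2.05 and 1.40 CPM in induced DIF-OX2. The zinc finger gene ZFP8 fell by 0.76 (adjusted p = 0.0360). SPL9 did not pass the test in dal-2 (log2 fold change −0.04, adjusted p = 0.931), and the difference between both changes was −1.94 (adjusted p = 0.0378). The dal-2 plants were older (20 and 21 days against 12), so age and genotype cannot be told apart in these 2 values. In dal-2 TEM1 rose by 0.95 (adjusted p = 0.0230) and TEM2 fell by 1.28 (adjusted p = 0.00704), both repressors of trichome initiation (list median 0.05). They were the called genes of 8 tested in dal-2, where 15.9% of all genes rose and 18.0% fell. The TEM1 call ended without replicate 1 or 2 of Col-0 or replicate 2 of dal-2 (adjusted p up to 0.103), and TEM2 stayed called in all 10 omissions. GIS, a zinc finger gene that promotes trichomes, had log2 fold changes of −1.91 (adjusted p = 0.0926) and −0.27 (adjusted p = 0.797) in the 2 comparisons. The SPL9 fall ended when replicate 2 of induced DIF-OX2 was omitted (adjusted p = 0.0576), and its difference from dal-2 ended in 8 of 10 omissions. The ZFP8 call ended without either replicate of Col-0 on Dex or uninduced DIF-OX2, or replicate 2 of induced DIF-OX2 (adjusted p up to 0.240). The count of falls in induced DIF-OX2 thus ran from 0, without that last library, to 3.

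Among 12 genes of trichome growth and branching 2 fell in DIF-OX2 on Dex (median −0.22) and 3 in dal-2 (median −0.36), and none rose. Of all genes 10.4% and 18.0% fell, so both shares lie near the background. The log2 fold changes ran from −3.18 to 0.40 and from −2.18 to −0.02, and neither lowest value was called. HDG11 and HDG12, homeodomain genes related to GL2, fell by 0.83 (adjusted p = 0.0276) and 1.28 (adjusted p = 0.0134) in induced DIF-OX2 and by 1.07 (adjusted p = 0.00780) and 0.95 (adjusted p = 0.0258) in dal-2. MYB5, a MYB of trichome growth and seed coat, fell by 1.71 in dal-2 (adjusted p = 0.0151). In DIF-OX2 on Dex no call of the list was left without either Col-0 library on Dex or replicate 2 of induced DIF-OX2, and 5 were made without either dal-2 library. In dal-2 none was left without replicate 1 of Col-0, and 5 were made without replicate 1 of dal-2. SIM, which drives trichome endoreduplication, had log2 fold changes of 0.40 (adjusted p = 0.161) and −0.02 (adjusted p = 0.956). The branching genes ZWI, AN and STI had log2 fold changes of −0.40 to 0.16 in the 2 comparisons, and none was called.

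The root hair differentiation genes, which lie downstream of the pattern in the root, were called in opposite directions in the 2 comparisons. In DIF-OX2 on Dex against Col-0 on Dex 5 of 20 rose and none fell (median 0.33), where 11.6% of all genes rose. In dal-2, 15 of 20 fell and none rose (median −0.84), where 18.0% of all genes fell. The cell wall genes LRX2, an extensin with leucine-rich repeats, and PRP1, a proline-rich protein, rose in induced DIF-OX2 by 1.86 (adjusted p = 0.00221) and 1.59 (adjusted p = 0.00278) on the log2 scale. PRP1 read 9.01 and 9.60 CPM in Col-0 on Dex, 30.7 and 25.4 CPM in induced DIF-OX2, and 2.87 and 1.94 CPM in dal-2. Among tested genes of the list PRP1 and RHS19 fell furthest in dal-2, by 2.43 (adjusted p = 5.03e-04) and 1.27 (adjusted p = 0.00742). RSL1, a bHLH gene of the list too low to be tested, had 1 read in dal-2 against 7 in Col-0. RHD6, the bHLH gene that starts root hair growth, had log2 fold changes of 0.94 (adjusted p = 0.116) and −0.60 (adjusted p = 0.290). The difference between both changes was positive and called for 9 of the 20 (median 1.28), where 4.18% of all genes were higher. Over single-library omissions and the other settings 2 to 9 rises were called in induced DIF-OX2, 3 to 17 falls in dal-2, and 2 to 11 differences. The rises numbered 2 without either Col-0 library on Dex or replicate 2 of induced DIF-OX2, and 9 without either dal-2 library. The falls numbered 5, 8 and 9 without replicate 1 of Col-0, replicate 2 of Col-0 and replicate 2 of dal-2, and 3 when only the 4 libraries compared were fitted. The differences numbered 2 to 4 without any 1 of the other libraries except dal-2 and replicate 1 of induced DIF-OX2.

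Root tissue markers gave the values beside these. Of 12, none was called in DIF-OX2 on Dex (median −0.19), nor under any omission or other setting run. In dal-2 4 fell and none rose (median −0.46), where 18.0% of all genes fell, among them CASP2, of the endodermal Casparian strip, which fell by 1.11 on the log2 scale (adjusted p = 0.00294). The falls numbered 1 without replicate 1 of Col-0, and 2 rises were called without replicate 1 of dal-2. The summed level of the 12 markers was 201 to 257 CPM in the 6 libraries of the first 3 groups, 219 and 247 CPM in induced DIF-OX2, and 158 and 194 CPM in dal-2. PIN2, the root auxin carrier of epidermis and cortex, had log2 fold changes of 0.48 (adjusted p = 0.162) and −0.38 (adjusted p = 0.232). No marker of the list was without reads in any group, and the part of root share in the root hair values was not tested.

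Markers of the shoot epidermis, the layer that bears trichomes, moved in part with the regulators. Of 7, 4 fell in DIF-OX2 on Dex against Col-0 on Dex (median −0.75), where 10.4% of all genes fell, led by ATML1, a homeodomain gene of epidermal identity (log2 fold change −1.12, adjusted p = 0.00947), and PDF2 (−0.83, adjusted p = 0.0433). The count was 1 without either Col-0 library on Dex or replicate 2 of induced DIF-OX2, and 2 without any 1 library of Col-0 or uninduced DIF-OX2. In dal-2 2 fell (median −0.11), where 18.0% of all genes fell, PDF1 by 1.81 (adjusted p = 0.00139) and ACR4 by 0.54 (adjusted p = 0.0187), the latter not called without replicate 1 or 2 of Col-0. A rise was called in dal-2 without replicate 1 of dal-2 or without either library of uninduced DIF-OX2. The summed level was 1252 to 1492 CPM in the 6 libraries of the first 3 groups, 757 and 1045 CPM in induced DIF-OX2, and 1164 and 1410 CPM in dal-2, and every marker had reads in every group. Leaf mesophyll markers, here 8 genes of photosynthesis, were lower too. Their summed level was 38256 to 45755 CPM in the first 3 groups, 12961 and 19252 CPM in induced DIF-OX2, and 1329 and 4424 CPM in dal-2. Fewer mesophyll cells and less photosynthesis RNA per cell cannot be told apart in these values. In DIF-OX2 on Dex all 8 log2 fold changes lay between −2.21 and −0.99 (median −1.47), of which 1 was called, where 10.4% of all genes fell. That count was 0 without the second replicate of Col-0 on Dex or that of induced DIF-OX2, and 8 without either dal-2 library. In dal-2 all 8 fell (median −4.12) and did so in all 10 omissions, 4 being called when only the 4 libraries compared were fitted. Of all genes 18.0% fell in dal-2. RBCS1A, a small subunit of Rubisco, fell there by 3.14 (adjusted p = 0.00231). Of 8 stomatal lineage genes, SPCH, which starts that lineage, rose in DIF-OX2 on Dex by 2.15 (adjusted p = 0.00119) and SDD1 fell by 1.29 (adjusted p = 0.0293), with a median of −0.70. In that comparison 11.6% of all genes rose and 10.4% fell. SPCH stayed called in all 10 omissions, and the falls numbered 0 without either Col-0 library on Dex or replicate 2 of induced DIF-OX2, 2 without its replicate 1 and 3 without either dal-2 library. In dal-2 6 of the 8 fell (median −1.70), where 18.0% of all genes fell, and 2 without replicate 1 of Col-0. The part of these cell types in the values of the regulators was not tested.

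**Figure D4:**
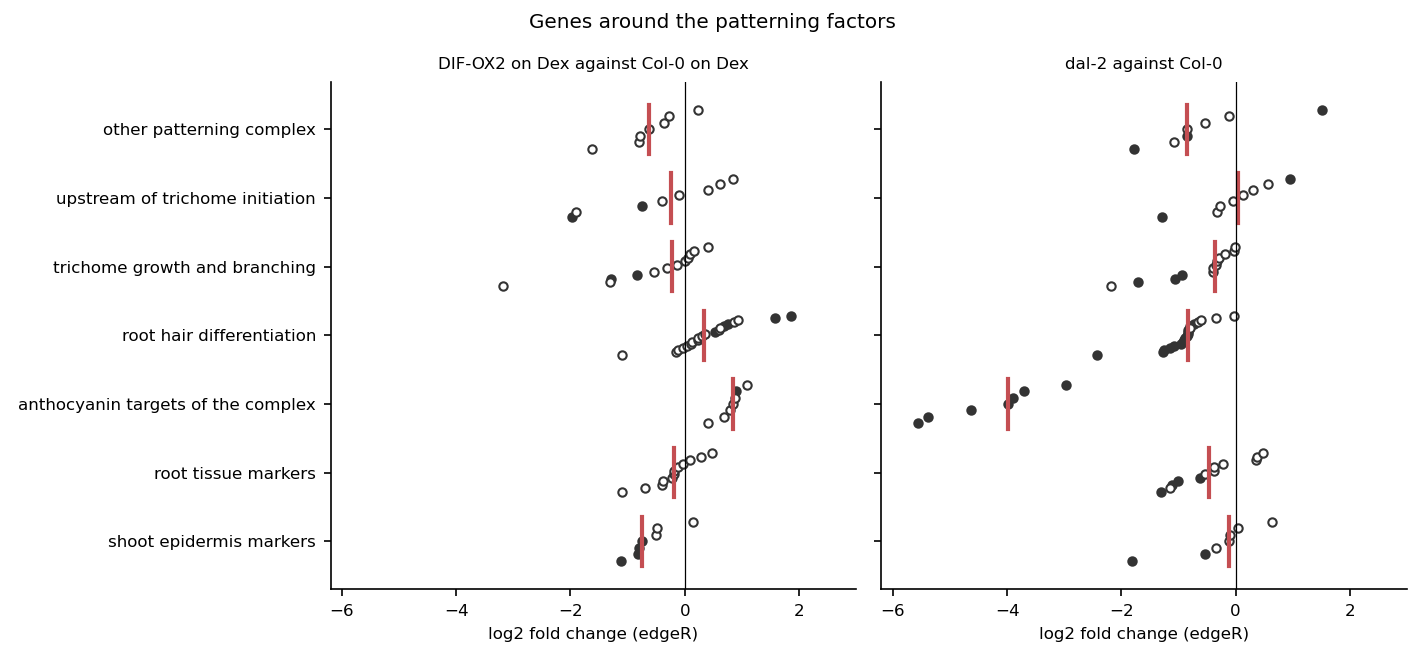
Log2 fold change (x axis, edgeR) of each tested gene of 7 lists in DIF-OX2 on Dex against Col-0 on Dex (left) and dal-2 against Col-0 (right); filled points passed an adjusted p of 0.05 and red bars are list medians. Root hair genes had a median of 0.33 on the left and −0.84 on the right, and anthocyanin genes 0.84 and −3.98.

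TTG1 and its bHLH partners also drive anthocyanin synthesis together with other MYB proteins, and those targets were read as a further output. In dal-2 all 7 tested genes fell (median −3.98), where 18.0% of all genes fell. DFR and LDOX, enzymes of the late pathway, fell by 5.38 (adjusted p = 7.74e-05) and 5.55 (adjusted p = 1.05e-04) on the log2 scale. DFR read 63.7 and 60.1 CPM in Col-0 and 0.819 and 2.05 CPM in dal-2. In DIF-OX2 on Dex against Col-0 on Dex, 1 of 7 rose and none fell (median 0.84). The riser was the anthocyanin glycosyltransferase UF3GT, by 0.89 (adjusted p = 0.0305), and the log2 fold change of DFR was 0.41 (adjusted p = 0.247). The UF3GT call ended without any 1 library of Col-0 on Dex or DIF-OX2, induced or not, and 3 rises were called without either dal-2 library. A rise was found for 11.6% of all genes. In uninduced DIF-OX2 against Col-0, the 7 had a median log2 fold change of −0.75 (−1.04 to −0.63). None was called there, where 0.00967% of all genes were. Within DIF-OX2, Dex raised 5 of the 7 from that lower start (median 1.28), where 12.7% of all genes rose. That count was 1 without replicate 2 and 3 without replicate 1 of uninduced DIF-OX2, 2 without replicate 2 and 3 without replicate 1 of induced DIF-OX2, and 3 without either library of Col-0 on Dex. The change in induced DIF-OX2 minus that in dal-2 was positive and called for 5 of 7 (median 4.97), and for at least 5 under every setting run. For that difference, 4.18% of all genes were called higher. TTG1 itself was not called in any of these comparisons.

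The genes whose log2 CPM was most like that of 3 regulators over the 10 libraries were looked up as a description. For GL1 these were UNE15 (Pearson r 0.981), TOE3 (0.978) and 4CL8 (0.976). For GL2 they were MDA1 (0.989), AT1G14250 (0.988) and AT5G01015 (0.988). CPC was most like GSTL1 (0.979), AT5G49870 (0.973) and GXMT1 (0.966). GSTL1, a glutathione transferase, averaged 12.8 CPM in Col-0, 31.0 CPM in induced DIF-OX2 and 1.20 CPM in dal-2, and so shared the order of CPC. The 10 points share their libraries and fall into groups, so these correlations are descriptions only.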

How the data were processed

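Whole-seedling RNA was sequenced in 10 libraries (TruSeq RNA kit, per the labels' protocols). The deposited values are raw counts of reads per gene. Reads were trimmed with Trimmomatic, aligned with TopHat2 and counted with HTSeq on TAIR10, per the submitters' processing notes. Versions, the strand setting and the treatment of reads with several matches are not given in the sources used here. All columns belonged to a labelled sample.

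Counts were fitted with edgeR 4.0.16 (R 4.3.3, limma 3.58.1): TMM scaling, filterByExpr (12921 genes removed, 20681 tested), quasi-likelihood tests over all 5 groups with 5 residual degrees of freedom, and Benjamini-Hochberg adjustment over all tested genes. On data simulated from the table, 75.0% of genes changed 4-fold and 26.3% of those changed 2-fold were recovered for DIF-OX2 on Dex against Col-0 on Dex. That simulation changed 100 genes 4-fold and 99 genes 2-fold of 20442, where 4549 were called in the data. It also gave all groups the same spread per gene, so these shares may not hold for the real tests. Alternatives were DESeq2 1.42.0, its size factors in edgeR, no filter, only the libraries compared, no dal-2, a replicate block, and each library left out. Depth limits GL1, TRY and TCL1, with 0 to 3 reads in some libraries. Count-ratio intervals are exact at 95%.

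The regulators and lists were chosen with earlier results of these data known. Named genes are all 10 regulators and, of each other list and main comparison, its first gene and up to 2 called rises and 2 called falls of largest size. Further genes named were chosen after their values were seen. A few results that this rule or a check of overlapping genes would name are not reported here. For GL1, GL2 and CPC the 3 genes of highest Pearson r of log2(CPM + 0.5) were named. Gene positions, exon lengths and upstream sequences came from RefSeq TAIR10.1, in which 32835 of the 33602 loci had an entry.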

Additional observations from a re-analysis of the deposited data

Results flagged for a closer look

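The effect of Dex differed between DIF-OX2 and Col-0 for 3 regulators by the interaction term of edgeR's quasi-likelihood test. Of all genes 6.33% passed this term, and 2.50% were lower. As stated above, the 3 calls were lost on most omissions of 1 library of the term. The differences of log2 fold changes, DIF-OX2 minus Col-0, were −2.87 for GL1 (adjusted p = 0.0336), −2.53 for MYB23 (adjusted p = 0.0409) and −1.25 for GL2 (adjusted p = 0.0460). In each case both induced DIF-OX2 libraries lay below all 6 libraries of Col-0, Col-0 on Dex and uninduced DIF-OX2. The same libraries entered the term, so this describes the calls and adds no support to them.

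The change in induced DIF-OX2 differed from the change in dal-2 for CPC by 1.83 (adjusted p = 0.0256) and for TTG2 by 1.44 (adjusted p = 0.0424), in a test chosen after the values had been seen. Of all genes 6.07% passed that test, and 4.18% were higher. As stated above, both calls ended when any library other than those of dal-2 was omitted. CPC was high in both induced DIF-OX2 libraries and low in both dal-2 libraries, whereas TTG2 was low in all 4. Age differed with genotype in dal-2, and both cannot be told apart.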

How the results depend on the processing

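GL1 and GL2 stayed called in both main comparisons and for Dex in DIF-OX2 under each alternative run, single-library omissions included. Over all fold changes of the 10 regulators and alternatives, 978 kept direction and side of the threshold, 81 lost a call, 3 gained one and 37 changed sign, all 37 on omission of 1 library. The number of regulators called ranged over omissions from 2 to 5 for DIF-OX2 on Dex against Col-0 on Dex, 5 to 8 for dal-2, 2 to 6 for Dex in DIF-OX2, 0 to 3 for the difference of Dex effects and 0 to 3 for the change in induced DIF-OX2 minus that in dal-2. The last gave 0 when only the libraries compared were fitted (CPC adjusted p = 0.0562, TTG2 0.0766). With only those libraries, dal-2 lost CPC (0.0657) and TCL1 (0.0765). TCL1 in DIF-OX2 on Dex also lost its call with no filter (0.0560). The cause was not tested.

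Deviations of same-numbered libraries correlated at 0.343 to 0.539 among Col-0, Col-0 on Dex and uninduced DIF-OX2, and at −0.124 to 0.130 in the 7 pairs with induced DIF-OX2 or dal-2. The numbers thus went together in 3 groups and not over all 5, and the labels name nothing shared by a number. With the replicate block, 4 regulators were called in DIF-OX2 on Dex against Col-0 on Dex (TCL1 at 0.0571), 7 in dal-2, 6 for Dex in DIF-OX2, 3 for the difference of Dex effects and 1 for the change in induced DIF-OX2 minus that in dal-2 (TTG2 at 0.0509). Among the 3 groups, the block gave 0 regulators for Dex in Col-0 and 0 for uninduced DIF-OX2, as without it.

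Changes of sign concerned only log2 fold changes that were not called. Over omissions in dal-2 against Col-0, TTG1 ran from −0.34 to 0.056 and ETC1 from −1.12 to 0.20. For Dex in DIF-OX2, GL3 ran from −0.99 to 0.45. For Dex in Col-0 the ranges were −0.21 to 0.21 for MYB23, −0.35 to 1.14 for GL3, −0.12 to 0.28 for TTG1, −0.18 to 0.13 for GL2, −0.32 to 0.14 for TTG2, −0.19 to 0.16 for CPC and −0.77 to 0.55 for ETC1. For the difference of Dex effects they were −1.60 to 0.23 for GL3 and −1.09 to 0.22 for ETC1. For uninduced DIF-OX2 they were −0.49 to 0.28 for MYB23, −1.21 to 0.61 for GL3, −0.14 to 0.26 for TTG1, −0.46 to 0.0023 for TTG2, −0.36 to 0.85 for TRY and −0.64 to 0.67 for ETC1. For the change in induced DIF-OX2 minus that in dal-2 they were −0.35 to 0.77 for MYB23, −0.57 to 1.54 for GL3, −0.62 to 0.70 for ETC1 and −2.93 to 4.02 for TCL1.

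Over the whole table, 4549 genes were called in DIF-OX2 on Dex against Col-0 on Dex, 6892 with only those libraries, 7065 without dal-2 and 1343 to 7102 over omissions. In dal-2 it was 7011, 2258 with only those libraries and 3891 to 8352 over omissions. Dex in DIF-OX2 gave 5023, 7632 without dal-2 and 1394 to 7678 over omissions. The difference of Dex effects gave 1309, 3681 without dal-2, 2046 by DESeq2 and 190 to 3660 over omissions. The change in induced DIF-OX2 minus that in dal-2 gave 1255, 752 with only those libraries and 236 to 3810 over omissions.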
